A study of Mus musculus with 6 samples.

Results

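The genes described here encode the mouse ligands of NKG2D. A list of 9 symbols was taken, namely Raet1a, Raet1b, Raet1c, Raet1d, Raet1e, H60a, H60b, H60c and Ulbp1, and a symbol became a member when it had a row in the deposited count tables. Of the 9 symbols, 4 had a row among the 34199 genes of the tables, and these were Raet1c, Raet1d, H60b and H60c. Raet1a, Raet1b, Raet1e, H60a and Ulbp1 had none. RefSeq synonyms could be looked up for Raet1e and Ulbp1 alone, and none of these had a row. The family was selected on measured values, because the counts of Raet1c and Raet1d were higher after CAF-1 loss. Differences between groups in the members are therefore given as a description, with no test, since each comparison uses libraries that chose them.

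The cells were HOXA9-immortalized granulocyte-macrophage progenitors (iGMPs), labelled Lys-GFP-ER-HoxA9 cells of C57Bl/6 mice. They are bone marrow progenitors held in self-renewal by HOXA9 fused to the estrogen receptor ligand-binding domain, which is active while estradiol is present, and they carry GFP driven by the lysozyme promoter. All 3 groups share this fusion and reporter, and each group had 2 libraries taken at 24 h. In CAF-1 OFF, IPTG induced a hairpin RNA that targets Chaf1b, a gene for part of the chromatin assembly complex CAF-1, in clonal lines kept in self-renewal. The control cells were given IPTG for the same time, and the study describes their vector as carrying a spacer in place of the hairpin. CAF-1 OFF and control are both listed with 500 µM IPTG and 150 ng/ml estradiol. In HOXA9 OFF, estradiol was withdrawn, which switches the fusion off and starts differentiation toward neutrophils. The sources used here do not say whether HOXA9 OFF cells were given IPTG or which clones they came from. The labels also do not say whether the libraries of a group came from separate cultures, so p-values measure only the spread between these libraries, which may be technical. The study mentions RNA-seq of independent clones at a later time.

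NKG2D is an activating receptor of natural killer cells and of some T cells. Its ligands resemble MHC class I proteins and are kept low on most healthy cells, and they appear on stressed, infected, proliferating or transformed cells, which the receptor then marks for killing. In mice they form the RAE-1 group (Raet1 genes), the H60 group and MULT1 (Ulbp1), and inbred strains differ in which Raet1 and H60 genes they carry. The RAE-1 proteins are very alike in sequence, so their reads can be hard to assign to 1 gene.

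All 4 members lie on chromosome 10, on the forward strand of the genome build of the files (mm9, NCBIM37), and all are protein coding in GENCODE M1. Raet1c spans chr10:21893327-21903720 with 7 exons and Raet1d spans chr10:22081700-22093945 with 7 exons. H60b spans chr10:21878392-22008655, a span that contains Raet1c, although the exons of the pair share 0 bases. H60c lies apart from them at chr10:7078791-7088611.

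**Figure D1:**
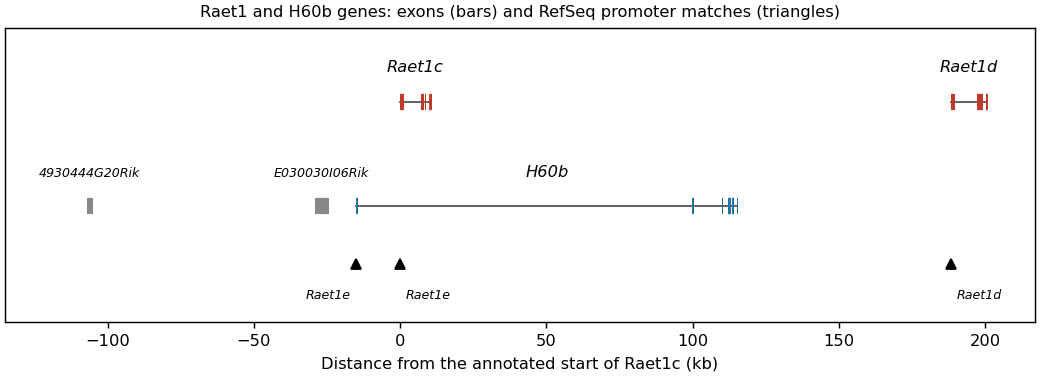
Positions of Raet1c, Raet1d and H60b as distance in kb from the annotated start of Raet1c, with exons as thick bars, the gene span as a thin line, and neighbouring genes in grey. Triangles mark the start sites of RefSeq promoter windows that match this build exactly, and a start site that RefSeq gives to Raet1e sits at the start of Raet1c.

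The promoters are shown because they show which RefSeq gene starts where GENCODE M1 places Raet1c. A further reason is that Raet1c and Raet1d had the same order of levels over the groups. RefSeq promoter windows of 300 bases (build GRCm38.p6) were found for Raet1d, Raet1e, H60c and Ulbp1. The Raet1d window matched the mm9 genome exactly at the annotated start of Raet1d, with 0 bases between the start sites. The Raet1e window at chr10:22173247-22173546 of GRCm38.p6 matched mm9 exactly at chr10:21893053-21893352, with its start site 24 bases before that of Raet1c. The annotation behind the counts is not given. If it places Raet1c as GENCODE M1 does, the Raet1c reads come from a place where RefSeq starts a Raet1e transcript. The symbol is used here as deposited. A second Raet1e window, at chr10:22158319-22158618, matched with its start site 17 bases before that of H60b. The H60c window matched with its start site 21 bases before that of H60c, and the Ulbp1 window had no exact match. In the sequences, capitals mark a GC box (GGGCGG), an E2F core (GCGGGA) and ETS cores (CGGAAG and AGGAAG), on either strand, and runs in capitals longer than 6 bases are adjacent or overlapping matches.
Raet1d promoter, chr10:22361644-22361943, plus strand: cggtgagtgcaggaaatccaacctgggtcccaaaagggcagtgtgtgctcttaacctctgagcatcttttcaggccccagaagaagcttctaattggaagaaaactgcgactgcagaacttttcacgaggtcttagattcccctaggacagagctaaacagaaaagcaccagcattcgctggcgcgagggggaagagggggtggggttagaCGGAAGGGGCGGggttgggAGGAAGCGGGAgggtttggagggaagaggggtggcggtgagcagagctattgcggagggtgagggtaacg
Raet1e promoter at the Raet1c start, chr10:22173247-22173546, plus strand: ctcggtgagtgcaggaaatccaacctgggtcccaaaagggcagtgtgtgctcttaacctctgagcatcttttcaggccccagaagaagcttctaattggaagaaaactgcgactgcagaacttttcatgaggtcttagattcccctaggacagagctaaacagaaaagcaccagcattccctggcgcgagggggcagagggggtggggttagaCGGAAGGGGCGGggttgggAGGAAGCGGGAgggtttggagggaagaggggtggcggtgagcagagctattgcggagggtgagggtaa
Raet1e promoter at the H60b start, chr10:22158319-22158618, plus strand: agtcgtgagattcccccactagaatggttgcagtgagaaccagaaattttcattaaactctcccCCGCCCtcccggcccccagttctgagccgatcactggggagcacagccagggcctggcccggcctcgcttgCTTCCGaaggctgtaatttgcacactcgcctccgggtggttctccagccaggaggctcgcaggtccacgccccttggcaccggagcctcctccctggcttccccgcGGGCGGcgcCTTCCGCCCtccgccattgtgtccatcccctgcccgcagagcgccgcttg

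The Raet1d window and the Raet1e window at the Raet1c start differed at 3 of 298 compared bases. Counted from 1 at the 5′ end of the Raet1d window, with the Raet1d base first, the differences were C126T, G178C and A193C. Each of these windows held 1 GGGCGG, 1 GCGGGA, 1 CGGAAG and 1 AGGAAG, and neither held TTGCNNAA, a core of C/EBP sites. These letters are common, since of 32851 RefSeq promoters 35.7% held GGGCGG, 20% held GCGGGA, 16.9% held CGGAAG, 35.4% held AGGAAG and 10.8% held TTGCNNAA. The window at the H60b start differed from the pair, with 3 GGGCGG and 2 CGGAAG. The motifs were picked after the sequences had been seen and are a description of letters only.

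Raet1c and Raet1d are near copies, which bears on their counts. The coding sequences of Raet1c and Raet1d were identical at 713 of 744 aligned bases (95.83%), and those of H60b and H60c at 470 of 586 (80.2%). Exon 4 held more of the differences between the Raet1 pair than any other exon, with 17 differing bases and 18 bases without a partner. It is shown because reads that cover these bases can be told apart. Capitals mark bases that differ or have no partner in the other gene, in build NCBIM37.
Raet1c exon 4, chr10:21900424-21900678, plus strand: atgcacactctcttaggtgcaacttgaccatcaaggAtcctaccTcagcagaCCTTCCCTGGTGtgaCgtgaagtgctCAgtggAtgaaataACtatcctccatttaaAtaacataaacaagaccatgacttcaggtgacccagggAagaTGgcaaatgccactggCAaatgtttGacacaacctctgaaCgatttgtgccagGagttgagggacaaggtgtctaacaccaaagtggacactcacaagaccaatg
Raet1d exon 4, chr10:22090672-22090920, plus strand: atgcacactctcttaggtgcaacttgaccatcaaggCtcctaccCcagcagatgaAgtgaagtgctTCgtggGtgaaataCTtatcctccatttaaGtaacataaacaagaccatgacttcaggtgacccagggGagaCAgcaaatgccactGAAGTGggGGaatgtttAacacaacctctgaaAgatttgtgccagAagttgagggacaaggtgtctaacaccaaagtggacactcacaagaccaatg

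Within exons, 63.69% of 50-base windows of Raet1c and 63.27% of those of Raet1d occurred once in the genome. With 100-base windows the shares were 88.84% and 88.79%. H60b reached 97.13% at 50 bases and 100% at 100 bases, and H60c 100% at both. The count files tally alignments of reads with several placements apart from the genes, so reads that fit both Raet1 genes equally are not in their counts. The unique share was nearly the same for both Raet1 genes. The read length was not given in the sources used here. Such non-unique alignments, of which 1 read can give several, numbered from 89.59 to 106.7 per 100 reads counted in genes, and the ranges of the 3 groups were 99.98 to 106.7 in control, 92.79 to 106.6 in CAF-1 OFF and 89.59 to 91.18 in HOXA9 OFF. The part of this in the member values was not tested.

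**Figure D2:**
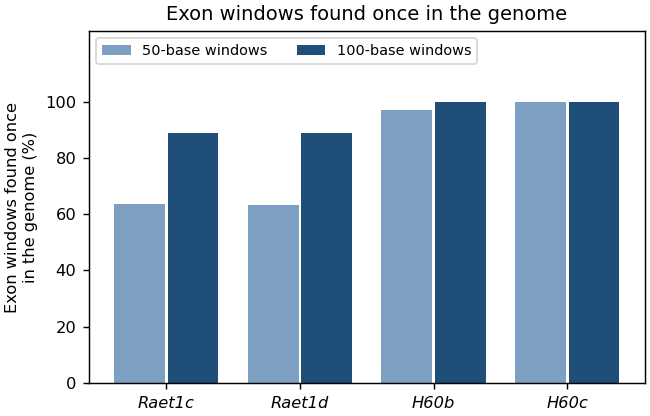
Share of exon windows of 50 and 100 bases that occur exactly once in the mm9 genome, in percent, for each member. Raet1c and Raet1d lie near 63% at 50 bases and near 89% at 100 bases, and the H60 genes are above both.

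The libraries held 16773560 to 25170898 reads counted in genes. A count of 3, taken as the floor of detection, stood for 0.1192 to 0.1789 CPM (counts scaled to library size), and intervals and floors cover counting error only. Of 12460 genes that passed the filter on low counts, 2 were members, Raet1c and Raet1d, and H60b and H60c did not pass. Raet1c passed through its counts in CAF-1 OFF, the group where it was high. Chaf1b stood at 97.5 ± 10.7 CPM in control (SD, n = 2 here and below), 14.9 ± 4.01 in CAF-1 OFF, with 63.0 ± 2.30 in HOXA9 OFF, so the hairpin target was lower in CAF-1 OFF (log2 -2.71 ± 0.20 against control, adjusted p = 0.0198, edgeR). It was also called lower in HOXA9 OFF (log2 -0.63, adjusted p = 0.0396, edgeR). Progenitor markers were present in control, with Mpo at 5273 CPM, Cd34 at 1801 and Kit at 626, as mean values.

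Raet1c was almost silent in control and highest after CAF-1 loss. It had 1 read in each control library, 47 and 41 reads in CAF-1 OFF, and 8 and 8 reads in HOXA9 OFF. The groups did not overlap, and CAF-1 OFF was highest and control lowest. As TMM-scaled CPM the levels were 0.0487 ± 0.0133 in control, 2.26 ± 0.259 in CAF-1 OFF, with 0.436 ± 0.0700 in HOXA9 OFF. A single read carries a 95% exact Poisson interval of 0.02532 to 5.572 reads, so the control level is known only as low.

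Raet1d, the other RAE-1 gene, was detectable in every library. It had 29 and 14 reads in control, 114 and 102 in CAF-1 OFF, and 30 and 34 in HOXA9 OFF. Scaled to depth, the CAF-1 OFF libraries were highest at 5.92 and 5.17 CPM, above HOXA9 OFF at 1.45 and 2.06 CPM and control at 1.14 and 0.813 CPM. The groups did not overlap, with the limit given for Raet1c, and the lower HOXA9 OFF library lay close to the higher control library. The means were 0.976 ± 0.231 CPM in control, 1.75 ± 0.434 in HOXA9 OFF and 5.54 ± 0.536 in CAF-1 OFF.

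H60b, an H60 family ligand, stayed at the edge of detection. It had 0 reads in both control libraries, 4 and 2 in CAF-1 OFF and 2 and 3 in HOXA9 OFF. Reads were seen in all 4 libraries of the depleted or estradiol-free cells and in neither control library. A count of 0 has a 95% exact upper limit of 3.689 reads, so the groups cannot be ranked at this depth. CAF-1 OFF and HOXA9 OFF held 6 and 5 reads, a ratio per depth of 1.21 (95% exact interval 0.3076 to 5.011). H60c, the other H60 gene, had 0 reads in all 6 libraries, with the same upper limit of 3.689 reads in each.

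**Figure D3:**
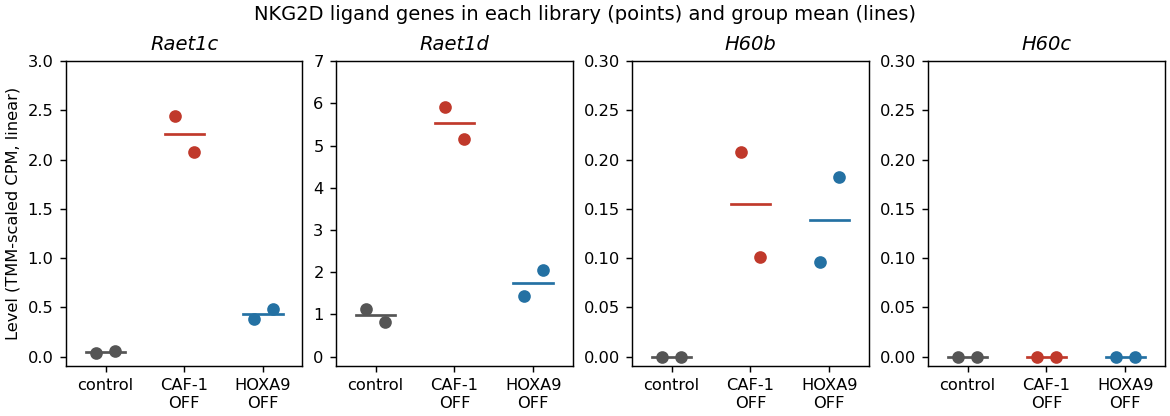
Level of each NKG2D ligand gene in TMM-scaled CPM on linear axes that differ between panels, with 1 point per library and a line at the mean of the 2 libraries of a group. Raet1c and Raet1d are highest in CAF-1 OFF and lowest in control, H60b is at 0.21 CPM or less in every library, and H60c is at 0.

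CAF-1 OFF exceeded control by 5.41 ± 0.57 for Raet1c and by 2.48 ± 0.35 for Raet1d (log2 fold change ± SE from edgeR), values that belong to the contrast that chose the genes. The fitted value of Raet1c depends on the prior count, since control had 1 read per library, and the ratio of the pooled reads per depth was 48.1 (95% exact interval 12.93 to 403.5). For Raet1d the pooled ratio was 5.49 (3.944 to 7.808). Both libraries of CAF-1 OFF lay above both control libraries for 2 of 2 members that passed the filter, as they did for 20.1% of all genes tested. In the whole comparison 4 of 12460 genes passed a fold of 1.5 with an adjusted p under 0.05, which is 0.0321%, with 3 higher (0.0241%) and 1 lower (0.00803%), and 1330 had an unadjusted p under 0.05. Nothing is read from these shares for the members, since the contrast chose them.

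In HOXA9 OFF both Raet1 genes stood between control and CAF-1 OFF. Raet1c had 8 reads in each HOXA9 OFF library against 1 in each control library, a log2 difference of 3.04 ± 0.66 from edgeR, and Raet1d differed by 0.82 ± 0.36. The pooled ratios per depth were 8.68 (95% exact interval 2.04 to 77.78) for Raet1c and 1.61 (1.08 to 2.434) for Raet1d. These values are a description with no p, because the comparison shares the control libraries whose low values chose the genes, and because Raet1c reached the fit only through its counts in CAF-1 OFF. The intervals of pooled ratios, here and in the other comparisons, cover counting error only, not the spread between libraries. An interval above 1, as for Raet1d, is therefore no evidence of a difference. In a fit of control and HOXA9 OFF alone Raet1c fell short of the filter. The log2 value of Raet1c stayed between 2.76 and 3.27 when 1 of these 4 libraries was left out. The planned edgeR fit put 1 of 2 members past a fold of 1.5 and an adjusted p under 0.05, where 22% of the 12460 genes were called, 13% higher and 8.97% lower. For the reasons just given this count is no test of the members. Both HOXA9 OFF libraries lay above both control libraries for 2 of 2 members and for 35.1% of all genes, and nothing is read from this for the members.

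Between the manipulated states, Raet1c and Raet1d both had their higher level after CAF-1 loss. The differences were 2.37 ± 0.43 for Raet1c and 1.66 ± 0.34 for Raet1d (log2), and no test is given because the CAF-1 OFF libraries chose the genes. The pooled ratios were 5.55 (3.232 to 10.12) for Raet1c and 3.403 (2.563 to 4.571) for Raet1d. Both CAF-1 OFF libraries lay above both HOXA9 OFF libraries for 2 of 2 members and for 33% of all genes. Of 9 mature myeloid markers, 8 had a lower level after CAF-1 loss than after estradiol withdrawal, and Ly6c2 had a higher one (126.1 against 98.42 CPM), with values for the list given below. In bulk libraries, a change in the share of cells that express a gene and a change in the RNA per cell cannot be told apart.

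Both genes remained low in absolute terms. Raet1c had a level above 0.337% of the 12460 genes in control, 16.9% in CAF-1 OFF, with 3.32% in HOXA9 OFF. For Raet1d the shares were 10.8%, 24.4% and 14.8%. Per kb of exon, so that genes can be compared, Raet1d stood at 0.768 ± 0.182 CPM in control, 4.36 ± 0.422 in CAF-1 OFF, with 1.38 ± 0.342 in HOXA9 OFF. Raet1c stood at 0.0382 ± 0.0104, 1.77 ± 0.203 and 0.342 ± 0.0550 CPM per kb in the same order, and H60b at 0.127 ± 0.0621 in CAF-1 OFF, with 0.115 ± 0.0498 in HOXA9 OFF. Raet1d was thus the more abundant RAE-1 transcript in every group.

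The counted balance of the Raet1 pair was lowest for Raet1c in control. Raet1c made up 1 of 30 and 1 of 15 Raet1 reads in the control libraries, or 3.33% and 6.67%. In CAF-1 OFF it made up 29.19% of 161 reads and 28.67% of 143 reads, and in HOXA9 OFF 21.05% of 38 reads and 19.05% of 42 reads. Pooled over the libraries of a group, the shares were 4.44% (95% Clopper-Pearson interval 0.5428 to 15.15) in control, 28.95% (23.91 to 34.4) in CAF-1 OFF and 20% (11.89 to 30.44) in HOXA9 OFF. These intervals cover counting error in pooled reads only and, with a family chosen on these reads, are no test between groups. Reads of one copy placed on the other would move this share, and their number is not known.

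**Figure D4:**
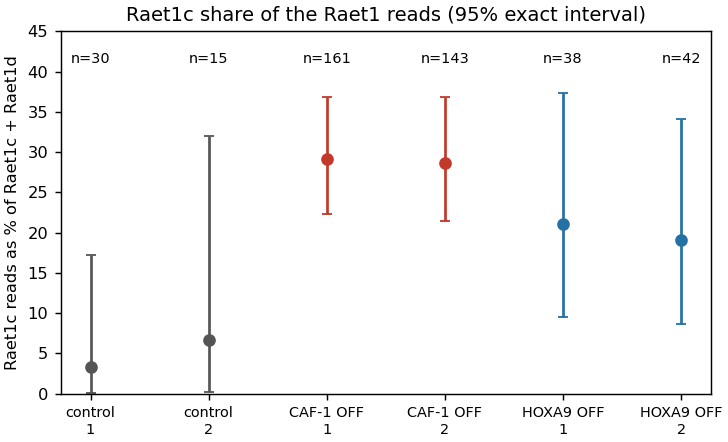
Raet1c reads as a percentage of Raet1c plus Raet1d reads in each library, with 95% exact binomial intervals and the number of reads above. CAF-1 OFF lies near 29%, HOXA9 OFF near 20% and control at 3.33% and 6.67%, where 30 and 15 reads give wide intervals.

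The sum of the 4 members does not depend on which copy a counted read was given to. The sums were 30 and 15 reads in control, 165 and 145 in CAF-1 OFF and 40 and 45 in HOXA9 OFF. In CPM they came to 1.03 ± 0.218, 7.96 ± 0.870 and 2.33 ± 0.565, without overlap between groups, from which nothing is read, as for Raet1c. The log2 ratio of the means to control was 2.96 for CAF-1 OFF and 1.19 for HOXA9 OFF. Raet1d supplied 95.3% of the sum in control, 69.7% in CAF-1 OFF, with 75.3% in HOXA9 OFF.

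On the receptor side of the pathway, 2 of 3 genes were called higher in HOXA9 OFF. Klrk1, which encodes NKG2D itself, had 7 and 0 reads in control, 3 and 1 in CAF-1 OFF, and 239 and 158 in HOXA9 OFF. The difference between HOXA9 OFF and control was called at 6.01 ± 0.75 (log2, edgeR, adjusted p = 0.00231), and the fitted value was 5.23 without control replicate 2 and 10.6 without control replicate 1, which leaves a control with 0 reads. Tyrobp, encoding the adaptor DAP12, which many myeloid receptors also use, had 2791 and 1967 reads in control and 6771 and 4904 in HOXA9 OFF, and was called higher by 1.48 ± 0.19 (adjusted p = 0.00244, edgeR). Hcst, encoding the adaptor DAP10, had 0.64 ± 0.21 (adjusted p = 0.0609, edgeR). None of the 3 was called in CAF-1 OFF, where the values were -0.59 ± 1.10, -0.45 ± 0.18 and 0.03 ± 0.21.

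Natural killer and T cell markers were examined because NKG2D is known from those cells. Of 10 markers, Ncr1, Gzma, Cd3e and Cd3g had 0 reads in all 6 libraries, and 3 passed the filter, none of them called in either comparison by the edgeR fit. Without the filter on low counts Nkg7 (adjusted p = 0.0365) and Prf1 (adjusted p = 0.0395) were called higher in CAF-1 OFF by edgeR. The summed level of the list was 10.51 to 11.23 CPM in control, 17.47 to 23.12 in CAF-1 OFF and 16.74 to 16.91 in HOXA9 OFF. Most of it came from Nkg7, a granule protein, at mean levels of 9.61, 17.8 and 11.8 CPM. Prf1, encoding perforin, had 13 and 11 reads in control, 48 and 32 in CAF-1 OFF and 23 and 35 in HOXA9 OFF (log2 1.84 ± 0.49 and 1.48 ± 0.50, adjusted p = 0.288 and 0.065, edgeR). Klrd1 (CD94) had 16 and 79 reads in HOXA9 OFF and 0 to 5 elsewhere (adjusted p = 0.0504, edgeR).

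Other ligands through which natural killer cells are activated or engaged were taken as a list of 9 genes, of which 7 were tested. In CAF-1 OFF 0 of 7 were called by edgeR, 6 of 7 had positive values, 4 had an unadjusted p under 0.05, and the median log2 value was 0.38 against -0.004 over all genes. Pvrl2 (nectin-2), a ligand of DNAM-1, had 381 and 273 reads in control, 598 and 543 in CAF-1 OFF and 439 and 324 in HOXA9 OFF. Scaled to depth, both CAF-1 OFF libraries were above the rest, and the log2 value against control was 0.93 ± 0.14 (adjusted p = 0.125, edgeR). Cd48, the ligand of 2B4, had 0.38 ± 0.12, and Pvr, the other DNAM-1 ligand, 0.37 ± 0.14. In HOXA9 OFF 2 of 7 were called higher and 1 lower, with a median of 0.41 against -0.003 over all genes. Icam1, a ligand of the integrin LFA-1, rose by 1.67 ± 0.17 (adjusted p = 0.00124) and Clec2d, the ligand of an inhibitory NKR-P1 receptor, by 1.63 ± 0.41 (adjusted p = 0.0258), while Pvr fell by 0.66 on the log2 scale (SE 0.14, adjusted p = 0.0155, all edgeR). The call of Clec2d was lost without control replicate 2 (adjusted p = 0.131) and without HOXA9 OFF replicate 1 (adjusted p = 0.126). That of Pvr was lost without control replicate 1 (0.0911), HOXA9 OFF replicate 1 (0.0985) and HOXA9 OFF replicate 2 (0.0582), given as adjusted p.

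MHC class I presentation, whose products restrain natural killer cells, showed no call in CAF-1 OFF. Of 8 genes 0 were called by edgeR, 0 had an unadjusted p under 0.05, and values ran from -0.18 ± 0.29 (Nlrc5) to 0.13 ± 0.20 (B2m), and the median log2 value was 0.015. In HOXA9 OFF the median was 0.03, Tapbp, the peptide-loading chaperone tapasin, rose by 0.83 ± 0.14 (adjusted p = 0.0066), and Nlrc5, a transactivator of class I genes, fell by 1.43 (SE 0.30, adjusted p = 0.0143, edgeR for both). Without control replicate 2, Nlrc5 was no longer called (adjusted p = 0.0644).

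Genes known to act on NKG2D ligand expression were taken as a list of 10, which held E2F factors, DNA damage kinases, Trp53, Myc and Hdac3. In CAF-1 OFF 0 of 10 were called and 1 had an unadjusted p under 0.05, with a median of -0.12. That gene was E2f2, an E2F family activator, with 27.0 CPM in control and 39.0 in CAF-1 OFF (log2 value 0.53 ± 0.11, adjusted p = 0.185, edgeR). In HOXA9 OFF E2f2 rose by 1.30 ± 0.11 (adjusted p = 0.000634), Chek1, a checkpoint kinase, fell by 0.69 (SE 0.10, adjusted p = 0.00452) and Myc fell by 0.91 (SE 0.09, adjusted p = 0.00139, edgeR), with a median of -0.10 over the list. Among 8 targets of the DNA damage response 0 were called in CAF-1 OFF, where 1 had an unadjusted p under 0.05 (Bbc3, encoding PUMA, -0.62 ± 0.24). Without the filter on low counts Sesn2, a sestrin gene, was called lower there (log2 -0.72, adjusted p = 0.035, edgeR). Cdkn1a, encoding p21, had 0.23 ± 0.25 there. In HOXA9 OFF 1 of 8 was called, Cdkn1a, which fell by 0.84 (SE 0.26, adjusted p = 0.0472, edgeR). That call was lost without control replicate 2 (adjusted p = 0.248), without either HOXA9 OFF library (0.218 and 0.059) and without either CAF-1 OFF library (0.0516 and 0.0515).

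Of 5 genes that cut ligands from the cell surface or assist it, 0 were called in CAF-1 OFF and 2 had an unadjusted p under 0.05, with a median of 0.31. These were Adam17, a sheddase, with 0.51 ± 0.12, and Pdia6, a disulfide isomerase, with 0.31 ± 0.09. In HOXA9 OFF Mmp9, a matrix metalloproteinase, rose by 2.81 ± 0.51 (adjusted p = 0.00853) and Mmp14, a membrane-bound one, fell by 3.99 (SE 0.33, adjusted p = 0.000669, edgeR), with a median of 0.32. The value of Mmp9 was 3.50 without control replicate 1 and 2.10 without HOXA9 OFF replicate 1, and it was called in both cases (adjusted p = 0.0183 and 0.0418, edgeR).

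**Figure D5:**
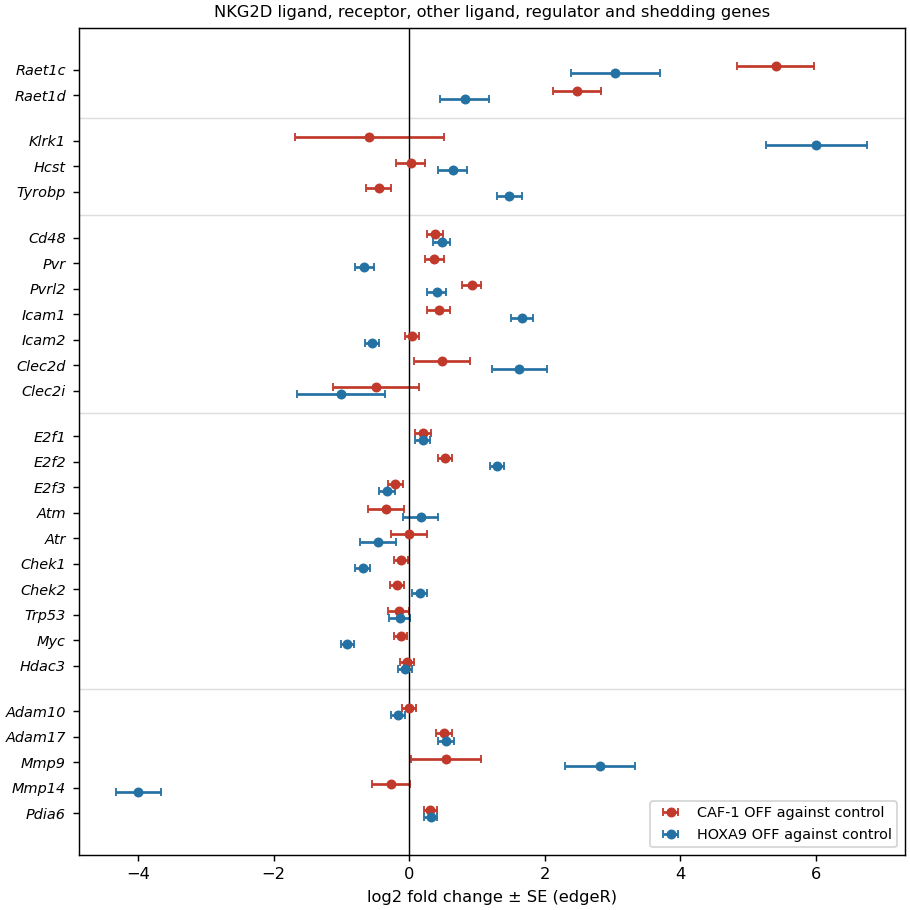
Log2 fold change with SE from edgeR for Raet1c and Raet1d, the receptor and its adaptors, other ligands of natural killer cells, ligand regulators and shedding enzymes, in CAF-1 OFF (red) and HOXA9 OFF (blue) against the same control libraries. Raet1c and Raet1d have the highest red values, and Klrk1 and Mmp14 the most extreme blue ones.

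Markers of maturation were set beside the ligands. Of 9 mature myeloid markers 9 were called higher in HOXA9 OFF, with summed levels of 59.27 to 80.6 CPM in control, 178.1 to 239 in CAF-1 OFF and 1082 to 1409 in HOXA9 OFF. In CAF-1 OFF 0 of 9 were called by edgeR, 9 of 9 had positive values and 4 had an unadjusted p under 0.05, with Ly6c2 at 2.44 ± 0.35 and S100a8 at 2.81 ± 0.39 (adjusted p = 0.0976 for each, edgeR). Of 9 progenitor markers 0 were called in CAF-1 OFF and 5 lower in HOXA9 OFF, among them Kit and Flt3, receptors for stem cell factor and FLT3 ligand. The other 4 were not called in HOXA9 OFF and had positive log2 values, 0.53 ± 0.22 for Mpo, 0.76 ± 0.33 for Elane, 0.59 ± 0.19 for Prtn3 and 0.03 ± 0.24 for Cebpa. Without the filter on low counts Elane was called higher in CAF-1 OFF (log2 1.11, adjusted p = 2.62e-05, edgeR). Their part in the Raet1 values was not tested. Over all lists, the edgeR fit called 0 of 62 genes tested in CAF-1 OFF and 27 of 62 in HOXA9 OFF, beside 0.0321% and 22% of all genes tested. In CAF-1 OFF DESeq2 called 5 list genes and edgeR with no filter 9. Calls numbering 0 in a list of this size thus say little.

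Neighbouring genes were examined next. Within 250 kb of a member lay 6 further protein-coding genes, of which 4 were tested, and 0 of these were called in CAF-1 OFF. The nearest to H60b, E030030I06Rik, had 99 and 52 reads in control, 85 and 74 in CAF-1 OFF and 95 and 79 in HOXA9 OFF. Sgk1, a kinase gene, had 83 and 37, 36 and 55, and 46 and 16 reads in the same order. In HOXA9 OFF 1 was called, Ppp1r14c, an inhibitor of protein phosphatase 1, which lies near H60c and fell by 1.84 (SE 0.31, adjusted p = 0.00621, edgeR).

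Genes whose level followed those of the members across the 6 libraries were found by Pearson correlation of log2 CPM among 11272 genes, as a description, since the libraries share their groups. For Raet1c these were Pvrl2 (r = 0.9864), Arf4 (r = 0.9836) and Map3k5 (r = 0.9832). For Raet1d they were Cdc25b (r = 0.9944), Nlrp10 (r = 0.9922) and Deptor (r = 0.9916). Raet1c and Raet1d had r = 0.972 with each other. Nlrp10, an NLR family gene, had 15 and 8 reads in control, 763 and 498 in CAF-1 OFF and 22 and 67 in HOXA9 OFF. The size of the change varied widely among these genes, and Arf4, a small GTPase gene, lay between 154.8 and 159.8 CPM in control and between 193.9 and 201.9 CPM in CAF-1 OFF.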

How the data were processed

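Gene expression was measured by bulk RNA-seq of 6 libraries in 3 groups of 2, and groups were taken from the labels. The deposited files hold raw read counts per gene symbol, which the authors made with STAR (mm9) and HTSeq, and their strand setting, annotation and overlap mode are not given in the sources used here. The 5 HTSeq tally lines were left out of library sizes. Reads counted in genes numbered 16773560 to 25170898 per library.

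The fit used edgeR 4.0.16 under R 4.3.3 (filterByExpr, TMM factors 0.954 to 1.03, quasi-likelihood F test, group as the only term, all 6 libraries), and p-values were adjusted by Benjamini-Hochberg over 12460 genes. Calls needed a fold of 1.5 and an adjusted p under 0.05, the study's cutoffs. DESeq2 1.42.0 served as an alternative. Members are described without a test, also in the HOXA9 OFF comparison. That one was planned as an edgeR test, but it shares the control libraries that chose them. Its output is printed as the fit gave it and supports nothing. The fit was tested on 3 sets of simulated data, in which far fewer genes changed than are called in HOXA9 OFF here. There 10.5% of calls were false, above the threshold, and 59.3% of the smaller, 2-fold changes were recovered. These shares depend on how many genes change, so they are not those of the real data. Adjusted p-values near the threshold are still taken as less sure than they read. Replicates differed by more than sampling noise, so none was counted as a duplicate.

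Positions came from GENCODE M1 on NCBIM37, in which 33223 of 34199 symbols were found, and promoters from RefSeq (GRCm38.p6). Genes named are all members, the genes of 9 lists, protein-coding genes within 250 kb of a member, and the 3 genes most correlated with each tested member (mean CPM of at least 1, prior count 2). Members and lists were chosen with earlier results of these data known.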

Additional observations from a re-analysis of the deposited data

Results flagged for a closer look

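H60b fell below the filter on low counts and entered no test in the main fit, yet it had reads above the control level in every manipulated library. Its counts were 4 and 2 in CAF-1 OFF and 2 and 3 in HOXA9 OFF, against 0 and 0 in control. These are at most 4 reads in a library, and a count of 0 allows up to 3.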

How the results depend on the processing

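With 2 libraries per group, few counts and near-identical copies, the Raet1 values are limited by depth and by read placement. Over the alternatives in which they passed the filter, the log2 value against control in CAF-1 OFF ranged from 5.133 to 5.649 for Raet1c and from 2.286 to 2.764 for Raet1d, a direction that the choice of members fixes. The log2 ratio of the summed members to control ranged from 2.765 to 3.196 for CAF-1 OFF and from 0.918 to 1.411 for HOXA9 OFF when 1 library was left out. No result changed sign.

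For members in HOXA9 OFF against control the edgeR output is no test, since the control libraries chose the members and Raet1c entered the fit through CAF-1 OFF. The fit put 1 past the cutoffs, and 0 at 2-fold with an adjusted p under 0.01, 0 after requiring a mean of 1 CPM and 0 with only the 4 libraries compared, the last 2 because Raet1c was then not tested. With 1 library left out, Raet1c stayed past the cutoffs only when that library was from CAF-1 OFF, which is not in the comparison. Without 1 control or HOXA9 OFF library its log2 value ran from 2.756 to 3.272. With the mean CPM filter, members with both CAF-1 OFF libraries above control numbered 1 instead of 2, and above HOXA9 OFF also 1. With no filter they numbered 3 against control, where H60b joined with at most 4 reads in a library, and 2 against HOXA9 OFF. List genes called in CAF-1 OFF numbered 0, but 5 with DESeq2, 9 with no filter, 1 with the 4 libraries, 0 to 2 when 1 library was left out (2 without either HOXA9 OFF library), with 4 mature myeloid markers (Cybb, Ly6c2, S100a8 and S100a9) among those of DESeq2 and of no filter and Pvrl2 called by DESeq2 (adjusted p = 0.000116) and with no filter (0.00229). List genes called in HOXA9 OFF numbered 27, and 17 at 2-fold with an adjusted p under 0.01. Over all genes, 4 calls in CAF-1 OFF became 192 with DESeq2, 378 with no filter and 9 with the 4 libraries. At 2-fold with an adjusted p under 0.01 they became 0, and the 2740 calls in HOXA9 OFF became 987. Counts also moved in both comparisons when 1 library was left out, which leaves 1 library in a group. The cause of these shifts was not tested. Cdkn1a in HOXA9 OFF lost its call with the 4 libraries alone (adjusted p = 0.0529).

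Same-numbered libraries did not deviate together throughout (correlations of -0.178, 0.456 and 0.033), so the numbers were not taken as pairs. With a replicate block, 27 list genes were called and 1 member (Raet1c, log2 value 3.04) lay past the cutoffs in HOXA9 OFF, again no test, 0 list genes and 2 genes in all were called in CAF-1 OFF, and Cdkn1a lost its call (adjusted p = 0.0519). With the crossed pairing, added after seeing the data, list genes called in CAF-1 OFF numbered 5 (Elane and the same 4 mature myeloid markers) and all genes 71.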
